A study of Mus musculus with 6 samples.

Results

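Transcript levels of 8 genes were examined in cardiac fibroblast libraries: the matricellular CCN genes *Cyr61*, *Ctgf*, *Nov*, *Wisp1* and *Wisp2*, and the YAP target genes *Ankrd1*, *Amotl2* and *Ajuba*. *Cyr61* and *Ctgf* belong to both groups. The genes were chosen by name, and all 8 were found among the 34745 genes of the deposited expression table, which uses the older CCN symbols. RNA-seq was carried out on cardiac fibroblasts taken from the left ventricle of mice on Day 7 after myocardial infarction (MI), in 3 libraries labelled KO and 3 labelled WT. The KO mice carried a CRISPR/Cas9 deletion of the part of *Kdm5b* that encodes the JmjC domain, in every cell of the body. *Kdm5b* encodes a histone lysine demethylase. The WT mice were littermates, and all animals were male C57BL/6 mice of 8 to 10 weeks. Both groups had undergone MI by a permanent tie around the left anterior descending artery, and no library without MI was part of the comparison. How many mice contributed to each library is not given in the sources used here.

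CCN proteins are secreted, cysteine-rich proteins that sit in the extracellular matrix and bind integrins, heparan sulfate proteoglycans and LDL receptor-related proteins. YAP and TAZ are transcriptional coactivators that enter the nucleus when the Hippo kinases are inactive and bind DNA through TEAD factors. *Ctgf*, *Cyr61*, *Ankrd1*, *Amotl2* and *Ajuba* are widely used as readouts of that activity, and in the injured heart *Ctgf* is known as a fibroblast product that accompanies scar formation.

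The promoters of 4 of the 8 genes were matched in the RefSeq promoter set (build GRCm38.p6), and they are given because YAP acts on its targets through TEAD factors at DNA. Each sequence holds 300 bases, from 250 bases before the annotated start to 50 bases after it, read 5′ to 3′ on the strand of the gene. Capitals mark the TEAD motif GGAATG or, for a match on the other strand, CATTCC. *Cyr61* lay on the minus strand at chr3:145649936-145650235, *Ankrd1* on the minus strand at chr19:36119795-36120094, *Amotl2* on the plus strand at chr9:102717554-102717853 and *Ajuba* on the minus strand at chr14:54577612-54577911.
Cyr61: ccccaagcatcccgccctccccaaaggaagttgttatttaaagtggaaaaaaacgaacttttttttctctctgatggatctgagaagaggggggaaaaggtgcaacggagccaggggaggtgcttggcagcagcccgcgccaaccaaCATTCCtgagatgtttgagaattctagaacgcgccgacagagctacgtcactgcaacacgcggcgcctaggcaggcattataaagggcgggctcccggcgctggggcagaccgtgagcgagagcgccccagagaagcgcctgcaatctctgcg
Ankrd1: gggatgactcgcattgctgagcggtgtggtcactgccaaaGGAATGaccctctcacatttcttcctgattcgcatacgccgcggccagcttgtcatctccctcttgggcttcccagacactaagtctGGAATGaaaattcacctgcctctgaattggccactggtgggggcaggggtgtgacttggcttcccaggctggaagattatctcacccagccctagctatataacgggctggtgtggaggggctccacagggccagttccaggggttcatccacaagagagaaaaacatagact
Amotl2: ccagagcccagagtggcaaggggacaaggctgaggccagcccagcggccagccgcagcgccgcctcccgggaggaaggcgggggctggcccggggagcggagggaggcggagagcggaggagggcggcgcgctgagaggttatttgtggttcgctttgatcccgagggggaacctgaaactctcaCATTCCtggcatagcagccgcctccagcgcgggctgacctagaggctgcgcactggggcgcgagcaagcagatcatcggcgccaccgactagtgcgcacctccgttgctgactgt
Ajuba: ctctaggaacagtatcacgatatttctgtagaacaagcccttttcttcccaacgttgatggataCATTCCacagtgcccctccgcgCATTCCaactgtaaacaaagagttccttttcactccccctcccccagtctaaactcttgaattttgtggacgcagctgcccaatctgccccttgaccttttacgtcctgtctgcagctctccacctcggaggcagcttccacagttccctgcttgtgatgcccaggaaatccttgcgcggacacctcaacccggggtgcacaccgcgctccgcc

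The motif was present in all 4 of these windows. The *Cyr61* window held 1 copy, whose first base lay 103 bases before the start, and the *Amotl2* window held 1 copy at 65 bases before the start. The *Ankrd1* window held 2 copies, at 210 and 123 bases before the start, and the *Ajuba* window held 2, at 186 and 164 bases. Of 32851 mouse promoters of the same length, 14.7% held at least 1 copy on either strand and 1.36% held at least 2. The AP-1 motif TGAGTCA, which reads TGACTCA on the other strand, and the CArG box were searched for in the same way and were not found in these 4 windows, while 5.2% and 1.63% of all promoters held them. A match of letters is a description of the window and not a binding site.

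The libraries held 12025403 to 15329427 counts, so that 3 counts, the limit that a count of 0 allows, corresponded to at most 0.249 CPM. CPM are counts scaled to the same total in every library, and levels are given after TMM scaling, which adjusts each library for its composition, and fold changes as log2 of KO against WT from edgeR's quasi-likelihood test. A gene was called when its Benjamini-Hochberg adjusted p over the 14084 genes tested was under 0.05. Of the genes tested, 30.2% were called, 17.7% higher and 12.5% lower in KO, and the median log2 fold change of all of them was -0.015. *Kdm5b* itself measured 98.1, 107 and 105 CPM in the KO libraries and 108, 129 and 123 CPM in the WT libraries, a log2 fold change of -0.22 (SE 0.07, n = 3 per label, edgeR adjusted p = 0.0574) that did not pass the threshold, although it passed in 3 of the 14 alternatives, namely without WT replicate 1 (-0.29, edgeR adjusted p = 0.0188), with upper quartile scaling (edgeR adjusted p = 0.0324) and with a replicate block (edgeR adjusted p = 0.0271). Its counts cover the whole gene and not only the deleted part, so they do not check the labels. By Q-PCR, the authors found *Kdm5b* mRNA nearly absent in KO cardiac fibroblasts, in cells not stated to come from infarcted hearts. The KO libraries here kept 86.1% of the WT level, and the reason for the difference was not tested.

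Of the 8 genes, 6 were lower and 1 was higher in KO, beside backgrounds of 12.5% and 17.7% of genes called in those directions. *Nov* was the gene that rose, and *Amotl2* was the gene whose change did not pass the threshold. The 6 falling genes kept between 70.9% and 82.5% of the WT level. In 7 of the 8 the labels did not overlap, beside 47% of all genes tested. In 6 every KO library lay below every WT library, beside 22.4% of genes, and in 1 every KO library lay above, beside 24.7%. Of the 8, 6 had a mean of at least 100 CPM over the 6 libraries, and *Nov* and *Ajuba* did not. Among the 2110 genes tested with such a mean, 26.4% were called lower and 16.6% higher. The median log2 fold change of the 8 genes was -0.37.

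*Ctgf*, the most abundant of them, encodes connective tissue growth factor and lies at chr10:24595442-24598683 on the plus strand (coordinates of the deposited expression table, as for the genes that follow). It measured 1797, 2218 and 1999 CPM in the KO libraries and 2705, 2907 and 2770 CPM in the WT libraries. All KO libraries were below all WT libraries, and the highest KO library was replicate 2. The level fell by 0.48 on the log2 scale (SE 0.07, edgeR adjusted p = 0.002), with a 95% interval of -0.65 to -0.31, which left 71.7% of the WT level. A minus-strand gene, *Gm15270*, overlaps *Ctgf* and had at most 19 counts in a library.

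*Cyr61* encodes the closest relative of *Ctgf* in the family, an adhesion-promoting matrix protein and a classical serum-induced early gene (chr3:145646976-145649981, minus strand). Its level was 642, 771 and 660 CPM in KO and 893, 954 and 893 CPM in WT, again without overlap. It fell by 0.40 on the log2 scale (SE 0.07, edgeR adjusted p = 0.00391), to 75.7% of WT. Within each library the log2 ratio of *Cyr61* to *Ctgf* was -1.54 ± 0.057 in KO and -1.61 ± 0.018 in WT (SD, n = 3, exact two-sided permutation p = 0.1, 0.15 adjusted over the 3 gene pairs compared). The difference of 0.08 did not pass, and 0.1 is the smallest p that 3 against 3 libraries allow.

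*Wisp1* (chr15:66891320-66923201, plus strand), a Wnt-induced CCN gene made by activated fibroblasts, measured 613, 713 and 685 CPM in KO and 873, 919 and 895 CPM in WT. *Wisp2* (chr2:163820861-163833146, plus strand), whose protein lacks the C-terminal domain shared by its relatives, measured 289, 307 and 273 CPM in KO and 424, 407 and 396 CPM in WT. For both genes the labels did not overlap, and the WT libraries lay close together. *Wisp1* fell by 0.42 (SE 0.06, edgeR adjusted p = 0.00139) and *Wisp2* by 0.50 on the log2 scale (SE 0.05, edgeR adjusted p = 0.000384). The ratio of *Wisp2* to *Wisp1* differed between the labels by -0.08 on the log2 scale, with overlap between libraries (exact permutation p = 0.4, 0.4 adjusted over the 3 pairs).

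*Nov*, known for a role in endothelial adhesion and as a counterpart to *Ctgf* in fibrosis, moved in the other direction (chr15:54745702-54754039, plus strand). Its libraries held 1830, 1250 and 1720 counts in KO and 95, 90 and 93 counts in WT. These correspond to 150, 93.8 and 111 CPM in KO and 6.65, 6.14 and 6.61 CPM in WT. Every KO library exceeded the highest WT library by a wide margin, while the KO libraries were uneven among themselves, with a coefficient of variation of 24.3% against 4.38% in WT. *Nov* rose by 4.19 on the log2 scale (SE 0.18, 95% interval 3.77 to 4.61, edgeR adjusted p = 5.1e-06), which is 18.2-fold. Of all genes tested, 5.99% were called and at least 2-fold higher, and 1.04% were called with a log2 rise of at least 4. Relative to *Ctgf* in the same library, *Nov* was at -4.11 ± 0.49 in KO and -8.76 ± 0.12 in WT (SD, n = 3), a difference of 4.65 on the log2 scale (exact permutation p = 0.1, 0.15 adjusted over the 3 pairs).

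The rise of *Nov* came together with a rise of endothelial markers, and in bulk libraries a change in the number of cells of a type and a change in RNA per cell cannot be told apart. Of 12 endothelial markers, 11 were higher in KO and none lower, beside 17.7% and 12.5% of all genes tested. The median of the markers was 2.64 on the log2 scale. Their summed level ran from 1479 to 2121 CPM in KO and from 265.5 to 276 CPM in WT. *Cldn5*, the tight-junction claudin of endothelium, was the exception, at 0.97 to 1.2 CPM in KO and 0.84 to 1.42 CPM in WT. Relative to the mean log2 level of the 12 markers, *Nov* remained higher in KO, at 0.952, 0.635 and 0.759 against -0.935, -1.09 and -0.941 in WT (exact permutation p = 0.1). That mean weighs every marker equally, and their log2 fold changes ran from 0.004 to 4.23, so the difference depends on the markers listed. Relative to *Pecam1*, the endothelial adhesion molecule, the labels overlapped, at -2.41 ± 0.13 in KO and -2.61 ± 0.15 in WT (SD, n = 3, exact permutation p = 0.3). *Pecam1* was among the 2 genes nearest to *Nov* in pattern over these same libraries, so this overlap is tied to the choice of marker. Whether the endothelial markers had a part in the level of *Nov* was not tested beyond these ratios, which were added after seeing the data.

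Genes around *Nov* were read in the same fit. Within 500 kb on either side, a window chosen after the values were seen, 9 other genes were listed and 6 were tested, of which 2 were called (33.3%, beside 30.2% of all genes tested). *Deptor*, an mTOR inhibitor, was higher by 1.16 (edgeR adjusted p = 0.00845), and *Tnfrsf11b*, the decoy receptor osteoprotegerin, was lower by 0.46 on the log2 scale (log2 fold change -0.46, edgeR adjusted p = 0.00049). The other 4 were not called. *Wisp3*, the last CCN gene, had 7, 7 and 4 counts in KO and 0, 0 and 1 counts in WT and was too low to be tested.

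**Figure D1:**
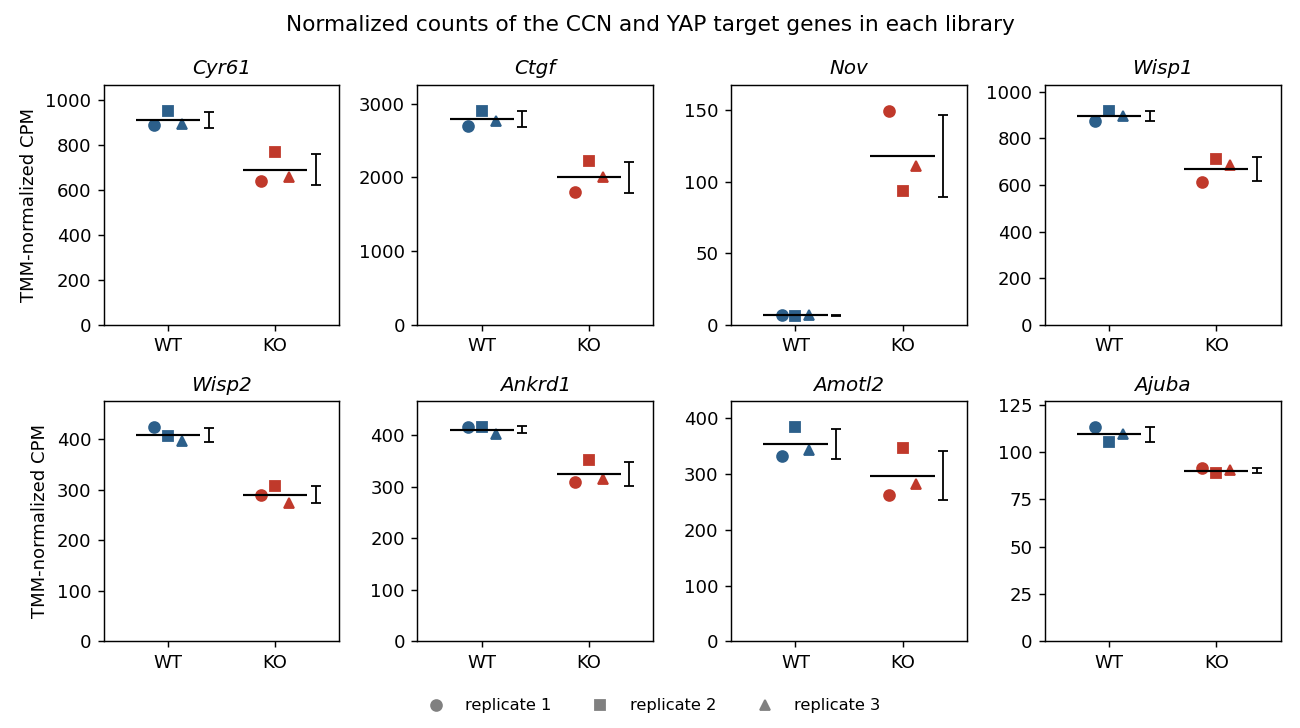
Level of each gene in every library, in TMM-normalized CPM on axes that start at 0. Points are single libraries with a marker for each replicate number, lines are the means of 3 libraries and bars are ± 1 SD. *Nov* lies at 93.8 to 150 CPM in KO and at 6.14 to 6.65 CPM in WT, and *Amotl2* is the single gene whose labels overlap.

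Of the YAP targets outside the CCN family, 2 fell. *Ankrd1*, which encodes a muscle ankyrin repeat protein that shuttles between sarcomere and nucleus (chr19:36111965-36119844, minus strand), measured 309, 352 and 316 CPM in KO and 416, 415 and 403 CPM in WT. *Ajuba*, a LIM-domain scaffold that restrains LATS kinases (chr14:54567469-54577661, minus strand), measured 91.5, 88.7 and 90.3 CPM in KO and 113, 105 and 109 CPM in WT. Neither gene overlapped between the labels, and the KO libraries of *Ajuba* lay close together. *Ankrd1* fell by 0.34 (SE 0.06, edgeR adjusted p = 0.00305) and *Ajuba* by 0.28 on the log2 scale (SE 0.05, edgeR adjusted p = 0.00465). Both carried 2 TEAD motifs in the promoters shown above.

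*Amotl2*, an angiomotin that tethers YAP at cell junctions and is itself induced by YAP (chr9:102716672-102733418, plus strand), measured 262, 346 and 283 CPM in KO and 333, 384 and 344 CPM in WT. The second KO library lay above 2 of the WT libraries, so the labels overlapped. Its log2 fold change of -0.25 (SE 0.10, 95% interval -0.49 to -0.02, edgeR adjusted p = 0.0991) did not pass the threshold. Without KO replicate 2 the log2 fold change was -0.37 (edgeR adjusted p = 0.00891), which passed the threshold, as did -0.26 with a replicate block (edgeR adjusted p = 0.0148). In the other 5 fits that left out 1 library it did not pass, with an adjusted p of up to 0.264, and its smallest change was -0.17 when KO replicate 1 was left out.

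Levels were compared per length, that is as CPM divided by the kilobases of merged exons (GENCODE M21). The order in WT was *Ctgf*, *Cyr61*, *Wisp2*, *Wisp1*, *Ankrd1*, *Amotl2*, *Ajuba* and *Nov*. *Ctgf* stood at 977 ± 35.9 and *Cyr61* at 452 ± 17.7 (SD, n = 3). *Wisp2* followed at 213 ± 7.3, *Wisp1* at 161 ± 4.1 and *Ankrd1* at 142 ± 2.6, and no neighbours in the order overlapped in WT. *Amotl2* was at 56.2 ± 4.3, *Ajuba* at 30.0 ± 1.1 and *Nov* at 2.25 ± 0.099. *Nov* was therefore last by a wide margin in WT. In KO it moved up past *Ajuba*, to 41.2 ± 10, against 24.7 ± 0.4 for *Ajuba*. There *Nov* overlapped *Amotl2* (47.2 ± 7), and *Wisp1* (120 ± 9.3) overlapped *Ankrd1* (113 ± 8.1).

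The order of the middle genes depended on the length used. The deposited FPKM values put *Ankrd1* next after *Cyr61* in WT, at 230, ahead of *Wisp2* at 175 and *Wisp1* at 121. They also set *Ctgf* at 580, nearer to *Cyr61* at 447, and they let *Ajuba* (30.8) overlap *Amotl2* (27.4). The lengths behind those values were 4756 bases for *Ctgf* and 12718 bases for *Amotl2*, against 2861 and 6289 bases of merged exons. The deposited length lay within 1% of the sum of all distinct exon entries, overlapping ones counted repeatedly, in 73.7% of genes. A length that is the same in all libraries does not touch the comparison of KO with WT.

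**Figure D2:**
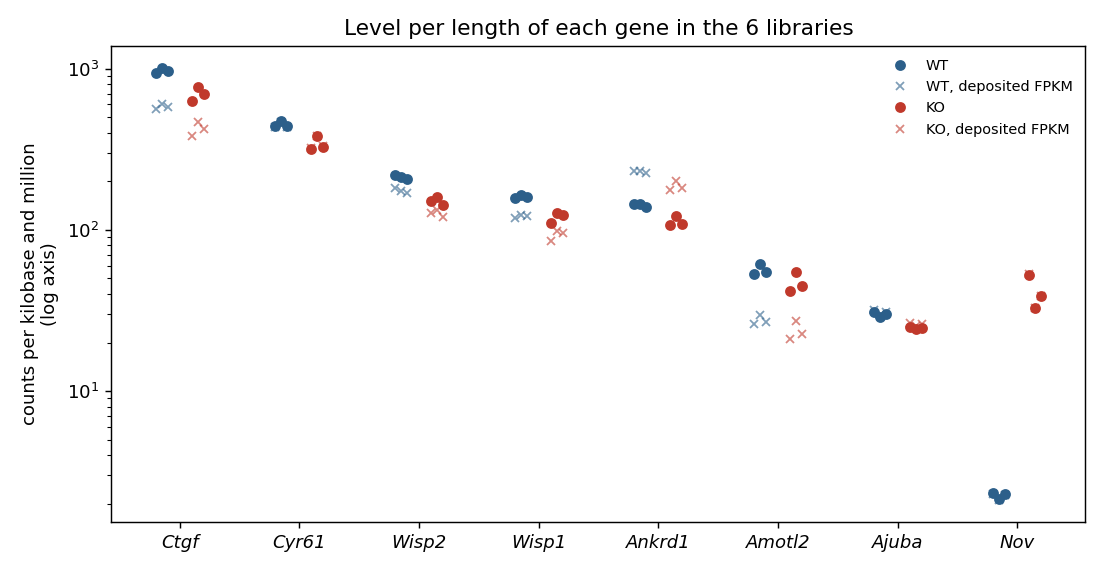
Level per length of each gene on a log axis, in CPM per kilobase. Circles use merged exon length, crosses are the deposited FPKM, blue is WT and red is KO, with 1 point per library. *Nov* moves from 2.25 in WT to 41.2 in KO, as means on merged length, while the order of *Ctgf*, *Cyr61* and *Wisp2* is the same in both labels.

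The make-up of the CCN transcripts was compared within each library. Of the summed CCN level per length, *Ctgf* made up 51.6% ± 1.5 in KO and 54.1% ± 0.52 in WT (SD, n = 3, exact permutation p = 0.1). *Cyr61* made up 25.2% ± 0.62 and 25.1% ± 0.24 (exact permutation p = 0.8), and *Wisp1* 8.89% ± 0.32 and 8.92% ± 0.10 (exact permutation p = 1). *Wisp2* made up 11.1% ± 0.69 and 11.8% ± 0.60, with overlap between the libraries (exact permutation p = 0.3). Among the 5 tested CCN genes *Nov* had the largest relative change of its share, at 4.15%, 2.21% and 2.91% in KO and 0.131%, 0.115% and 0.130% in WT. Even in KO it stayed the least of the 5 tested CCN genes.

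**Figure D3:**
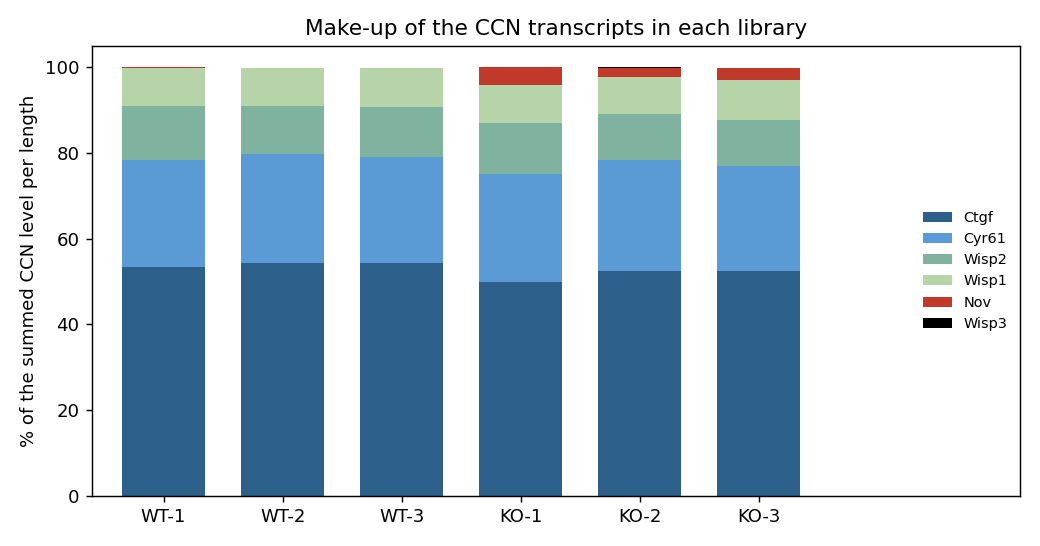
Share of each CCN gene in the summed CCN level per length of each library, in percent, as stacked bars that start at 0. *Nov* is seen in the KO libraries, at 2.21% to 4.15%, and is too thin to see in WT, while *Ctgf* is the largest part in all 6 libraries.

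The order of the KO libraries differed between the genes. *Cyr61*, *Ctgf*, *Wisp1*, *Ankrd1* and *Amotl2* were lowest in KO replicate 1 and highest in KO replicate 2, whereas *Nov* was highest in replicate 1 and lowest in replicate 2. Of the 12 endothelial markers, 8 had the order of *Nov*, among them *Pecam1*, *Kdr*, *Cdh5* and *Tie1*, and *Emcn*, *Esam*, *Cldn5* and *Robo4* had other orders. *Ajuba* had the order of *Nov* within a narrow range, and *Wisp2* followed neither order. This is a description of 3 libraries that share a label, and no test was made of it.

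Fibroblast markers moved with the falling genes. Of 12 markers, 11 were lower in KO and none higher. Of all genes tested, 12.5% were lower and 17.7% higher, and of those with a mean of at least 100 CPM 26.4% were lower. The median of the 12 markers was -0.39, and their log2 fold changes ran from -0.48 to -0.27. Their summed level was 27010 to 31500 CPM in KO and 37780 to 40220 CPM in WT, so the fibroblast markers were highly expressed under both labels. Relative to the mean log2 level of these markers in the same library, a measure added after seeing the data, KO and WT overlapped for all 7 genes other than *Nov*. The differences were -0.10 for *Ctgf*, -0.02 for *Cyr61*, -0.04 for *Wisp1* and -0.11 for *Wisp2*. For *Ankrd1*, *Amotl2* and *Ajuba* they were 0.05, 0.13 and 0.11 (exact permutation p from 0.2 to 0.6 over the 7 genes). *Nov* was 4.5 higher on this scale, without overlap. Cardiomyocyte (-0.412), macrophage (-0.391) and mesothelial markers (-0.405) had similar medians, so the fall was not particular to fibroblast markers. No ratios were taken to those other markers.

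**Figure D4:**
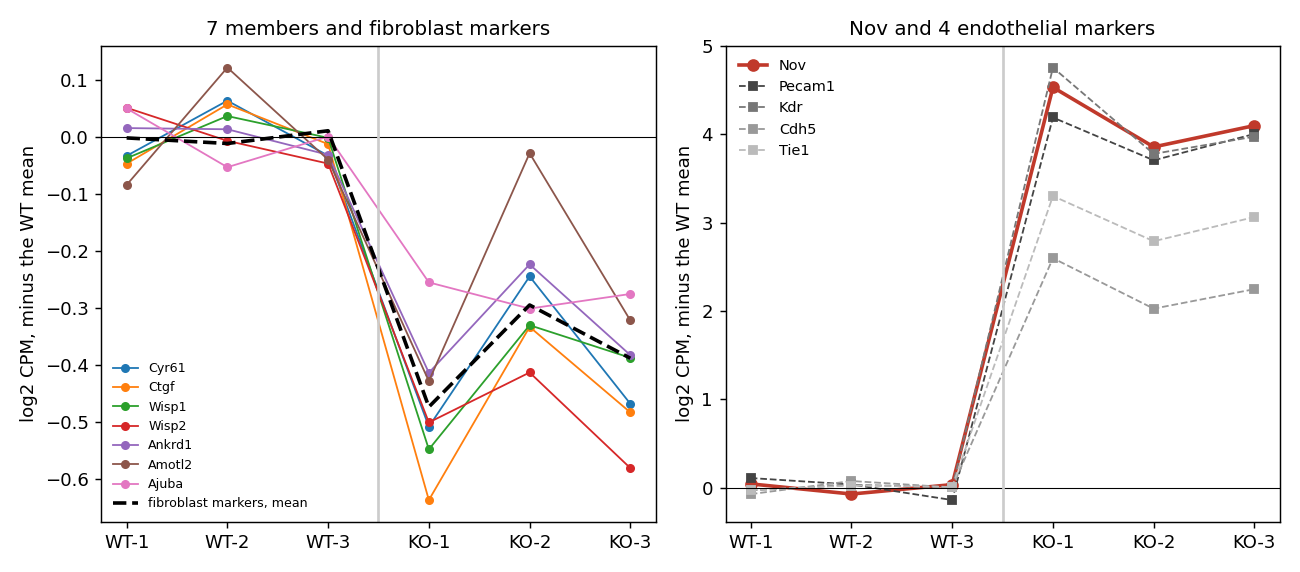
Log2 CPM of each gene in each library minus its WT mean. The left panel shows the 7 genes other than *Nov* with the mean of 12 fibroblast markers as a dashed black line, and the right panel, on a wider axis, shows *Nov* with 4 endothelial markers as grey dashed lines. The 7 genes lie around the fibroblast line in KO, and *Nov* shares with *Pecam1* and *Kdr* a rise of about 4.

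The genes most like each of the 8 in pattern were found by the root mean square difference of centred log2(CPM + 1) over the 6 libraries, among the 6581 genes whose mean FPKM reached 5. *Nov* was nearest to *Icam2*, an endothelial adhesion molecule, at 0.107 and to *Pecam1* at 0.113, and no gene lay within 0.1 of it. *Icam2* measured 83.1, 54.2 and 68.5 CPM in KO and 2.87, 2.59 and 3.27 CPM in WT. The other 7 had many genes close by, from 245 within 0.1 of *Amotl2* to 1190 within 0.1 of *Ajuba*. *Ctgf* was nearest to *Gab1* (0.0224), a signalling adaptor, and *Ltbp4* (0.0281), a matrix protein that binds latent TGF-beta. *Cyr61* was nearest to *2310022B05Rik* (0.0247) and the mesothelial gene *Msln* (0.0271). *Wisp1* was nearest to *Plxdc2* (0.0118) and *Vgll3* (0.0136), and *Wisp2* to *Zdhhc2* (0.0164) and the neurotrophin gene *Bdnf* (0.0243). *Ankrd1* was nearest to *Gm17501* (0.0211) and *Sparc* (0.0217), a collagen-binding matrix protein. *Amotl2* was nearest to *2700062C07Rik* (0.0284) and *Mcts2* (0.0361), and *Ajuba* to *Bcl2a1d* (0.0241) and *Polr3d* (0.0245). *Mcts2* and *Bcl2a1d* have near-identical copies in the genome, which makes their counts uncertain.

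The genes of the coactivators themselves were not called. *Yap1* measured 147, 144 and 138 CPM in KO and 149, 144 and 157 CPM in WT, with a log2 fold change of -0.07 (SE 0.05, edgeR adjusted p = 0.354). *Wwtr1*, which encodes TAZ, measured 224, 178 and 207 CPM in KO and 203, 202 and 182 CPM in WT, with a log2 fold change of 0.05 (SE 0.09, edgeR adjusted p = 0.685) that turned to -0.02 without KO replicate 1. The labels overlapped for both.

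Of the 6 TEAD and VGLL genes tested, 2 were higher, 3 lower and 1 was not called, beside 17.7% of all genes higher and 12.5% lower. *Tead4*, the TEAD factor best known from trophoblast and muscle, measured 18.1, 15 and 18.2 CPM in KO and 3.99, 5.19 and 4.41 CPM in WT. It rose by 1.92 on the log2 scale (SE 0.14, edgeR adjusted p = 5.2e-05), without overlap. *Tead2* and *Tead3* were lower, with log2 fold changes of -0.37 (edgeR adjusted p = 0.0099) and -0.41 (edgeR adjusted p = 0.017), and *Tead1*, at -0.24, was not called (edgeR adjusted p = 0.0786). *Tead1* was called in 3 of the 14 alternatives, without KO replicate 2 (edgeR adjusted p = 0.0332), with upper quartile scaling (0.0497) and with a replicate block (0.032). The call of *Tead3* was lost without KO replicate 3, WT replicate 2 or WT replicate 3, with adjusted p from 0.0534 to 0.0619. *Vgll4*, which competes with YAP for TEAD, measured 55.1, 43.2 and 51.2 CPM in KO and 31.4, 33.1 and 33.2 CPM in WT, and rose by 0.61 (SE 0.09, edgeR adjusted p = 0.00201). *Vgll3*, a TEAD cofactor of fibroblasts, fell by 0.41 on the log2 scale (edgeR adjusted p = 0.00155). *Vgll1* and *Vgll2* had 0 counts in every library.

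In the kinase cascade upstream, the share of genes called was that of the background. Of 23 Hippo pathway genes, 3 were higher, 4 lower and 16 not called, so that 30.4% were called beside 30.2% of all genes tested, and their median log2 fold change was -0.01. *Stk3*, which encodes the kinase MST2, was higher by 0.36, *Taok2* by 0.30 and *Strn* by 0.26. *Stk26* was at -0.38, *Wwc1*, which encodes the scaffold KIBRA, at -0.35 and its relative *Wwc2* at -0.31. The call of *Wwc1* was lost in 5 of the 6 fits that left out 1 library (edgeR adjusted p up to 0.104). It was also lost with limma on either FPKM scale (limma adjusted p = 0.0599 and 0.0567). The call of *Strn* was lost without WT replicate 2 (edgeR adjusted p = 0.0509). Among relatives of the 8 genes, *Amot* (0.20), *Amotl1* (0.06), *Limd1* (-0.13) and *Ankrd23* (0.21) were not called. *Wtip*, a LIM protein related to *Ajuba*, was called lower at -0.29 (edgeR adjusted p = 0.0381), a call lost in 5 of the 6 fits that left out 1 library. That call was also lost with no filter, library size scaling, a replicate block or DESeq2 (edgeR or DESeq2 adjusted p from 0.0505 to 0.0904). *Ankrd2* was too low to be tested.

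Among other genes known to respond to YAP, more fell than rose. Of 18, 10 were lower, 3 were higher and 5 were not called, and the median was -0.32. Of all genes tested, 12.5% were lower and 17.7% higher, and of those with a mean of at least 100 CPM 26.4% were lower. The largest falls were those of *Fjx1* (-0.67), *F3*, which encodes tissue factor (-0.50), and *Arhgef17* (-0.48). *Myof*, a membrane-repair protein (0.40), *Crim1*, a BMP-binding protein (0.34), and *Asap1*, an Arf regulator (0.26), were higher. Of the 6 fits that left out 1 library, the calls of *Fjx1* and *F3* were lost in 4 each and that of *Crim1* in 2, with adjusted p up to 0.101.

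**Figure D5:**
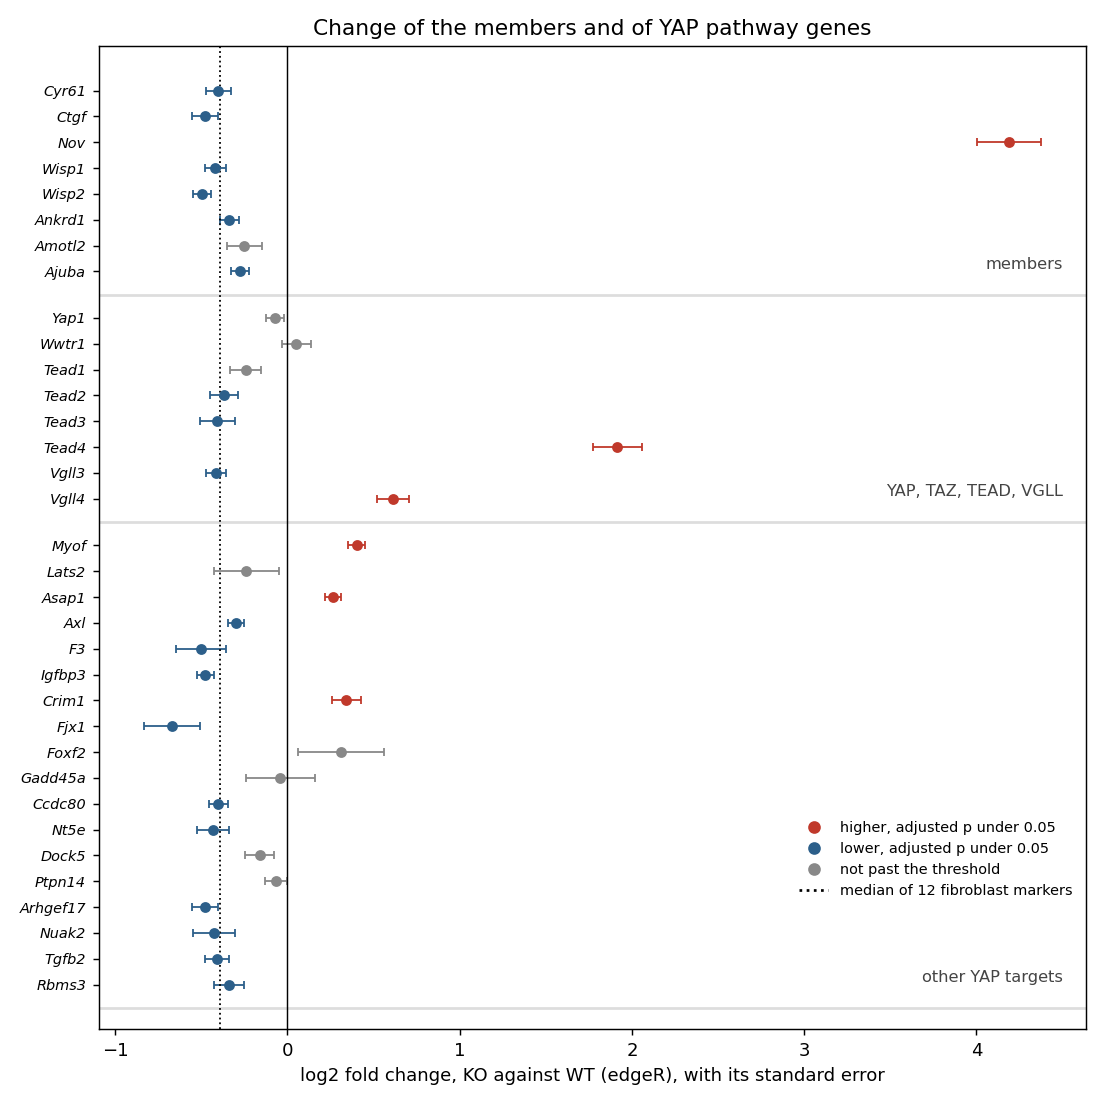
Log2 fold change of KO against WT with its standard error for the 8 genes, for YAP, TAZ, TEAD and VGLL genes and for 18 other YAP targets. Red is higher and blue is lower at an adjusted p under 0.05, grey did not pass, and the dotted line is the median of 12 fibroblast markers at -0.39. *Nov* at 4.19 and *Tead4* at 1.92 stand far to the right of the other genes.

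Receptors of CCN proteins were split. Of 12 tested, 3 rose, 6 fell and 3 were not called, beside 17.7% of all genes that rose and 12.5% that fell, with a median log2 fold change of -0.21. *Itgb3*, the integrin subunit of endothelium and platelets that pairs with alpha v, measured 294, 181 and 217 CPM in KO and 29.2, 26.7 and 27.4 CPM in WT. *Itga6*, a laminin-binding subunit, measured 193, 130 and 162 CPM in KO and 32.8, 37.1 and 33.6 CPM in WT. Both were highest in KO replicate 1 and lowest in KO replicate 2, the order of *Nov* and of 8 of the 12 endothelial markers. *Itgb3* rose by 3.05 (SE 0.17, edgeR adjusted p = 1.2e-05) and *Itga6* by 2.23 on the log2 scale (SE 0.14, edgeR adjusted p = 2.1e-05). *Notch1*, whose extracellular part binds the *Nov* product, rose by 1.09 (SE 0.08, edgeR adjusted p = 4.3e-05). *Itgb5*, another partner of alpha v, was at -0.45, the LDL receptor-related gene *Lrp1* at -0.36 and the leukocyte subunit *Itgb2* at -0.34, and the call of *Itgb2* was lost without WT replicate 3 (edgeR adjusted p = 0.0666).

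Genes of other pathways that act on *Ctgf* and *Cyr61* were read in the same fit, in which 12.5% of all genes tested fell and 17.7% rose (26.4% and 16.6% of genes with a mean of at least 100 CPM). Of 10 TGF-beta and SMAD targets, 7 fell and none rose (median -0.36), with the largest falls in *Pmepa1* (-0.50), *Smad7* (-0.43), both inhibitors of the pathway, and *Tgfbi* (-0.42), a matrix protein. Of 12 actin and SRF targets, 7 fell and none rose, with a median of -0.20, led by the contractile genes *Cnn1* (-0.47), *Tagln* (-0.45) and *Tpm1* (-0.39). The call of *Cnn1* was lost in 5 of the 6 fits that left out 1 library. It was also lost with a replicate block (edgeR adjusted p = 0.0796), library size scaling (edgeR adjusted p = 0.0549) and limma on log2(FPKM + 1) (limma adjusted p = 0.051). Immediate early genes did not move one way: of 12, 4 rose and 3 fell, with a median of 0.05. *Fosb* (2.20), *Nr4a1* (1.45) and the phosphatase gene *Dusp1* (1.31) were higher, and *Egr1* (-0.46), *Btg2* (-0.30) and *Junb* (-0.23) were lower.

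Markers of further cell types were read as a description of the libraries. Of all genes tested, 12.5% fell and 17.7% rose, and of those with a mean of at least 100 CPM 26.4% fell and 16.6% rose. Endothelial genes changed most, with *Kdr*, the VEGF receptor, higher by 4.23, *Robo4* by 4.09 and *Pecam1* by 3.98, and among fibroblast markers *Tcf21* (-0.48), *Col1a1* (-0.44) and *Postn* (-0.44) had the largest falls. Of 12 cardiomyocyte markers, 8 fell and none rose (median -0.41), with *Myh6* at -0.45, *Actn2* at -0.45 and *Tnnt2* at -0.44, and their summed level was 823.8 to 926.9 CPM in KO and 1152 to 1176 CPM in WT. Of 10 macrophage markers, 6 fell and *Cd68* rose by 1.38 (median -0.39), with *C1qb* at -0.60, *C1qc* at -0.49 and *C1qa* lower as well, and the sums were 1232 to 1265 and 1521 to 1629 CPM. Of 7 mesothelial markers, 6 fell, among them *Wt1* (-0.48), *Msln* (-0.44) and *Upk3b*, and *Krt19* rose by 1.53 (median -0.41, sums 421.9 to 477.4 and 563.7 to 573.9 CPM). Of 6 mural markers tested, *Mcam*, which endothelium also expresses, was among 2 that rose (1.38), and *Cspg4* (-0.43) and *Notch3* (-0.42) fell (sums 405.7 to 421.4 and 324.9 to 359.2 CPM). Neutrophil markers were low, at 15.3 to 19.9 CPM in KO and 16.58 to 17.5 CPM in WT, with *S100a8* among 2 of 4 tested that rose (2.99) and *Mmp8* lower (-0.55). *S100a8* had 16, 3 and 6 counts in the WT libraries, close to the floor of 3 counts. None of 8 lymphocyte markers was high enough to test, and 5 had 0 counts in every library. Of the 6 fits that left out 1 library, the calls of *C1qa* and *Mmp8* were lost in 3 each and those of *Cspg4*, *Notch3* and *Upk3b* in 1 each. The part of these cell types in the levels of the 8 genes was not tested beyond the ratios given above.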

How the data were processed

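RNA-seq of cardiac fibroblasts was analysed in 6 libraries, 3 labelled KO and 3 labelled WT. Libraries were made with a strand-specific kit after oligo(dT) enrichment, and reads were mapped by the authors with HISAT2 to the mm10 build. The submitters' processing notes also list GRCm38.p4 and edgeR without saying what each served. The counting tool, annotation release and strand setting are not given in the sources used here. The deposited counts are whole numbers per gene without normalization, and the deposited FPKM values are those counts scaled to gene length in kilobases and to the total of the library.

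The test was edgeR 4.0.16 under R 4.3.3 (filterByExpr, TMM, glmQLFit, glmQLFTest, Benjamini-Hochberg adjustment) over all 6 libraries, without covariates. The filter kept 14084 of 20854 genes with any count, and the common biological coefficient of variation, a single value for all genes, was 10.9%. Single values were compared with two-sided exact permutation tests. On simulated KO and WT counts of 13904 genes, the edgeR step recovered 36 of 80 genes changed by 0.5 on the log2 scale, 76 of 80 changed by 1 and 40 of 40 changed by 4, and 7.88% of its calls were false.

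The 8 genes, the lists and the alternatives were chosen with earlier results of these data known. The text names *Kdm5b*, the 8 genes, their relatives, the YAP, TAZ, TEAD and VGLL genes, up to 3 called genes in each direction with the largest change from each other list (mean FPKM of at least 1), and the 2 genes most like each of the 8. *Cldn5*, *Cdh5*, *Tie1*, *Emcn* and *Esam*, the neighbours of *Nov* and *Gm15270* were named after their values were seen. Alternatives were no filter, a mean of at least 1 CPM, DESeq2 1.42.0, library size or upper quartile scaling, limma 3.58.1 on log2(FPKM + 1) or log2(FPKM + 0.1), a replicate block, a fold change above 2 in addition and each library left out. The labels do not say whether libraries came from separate animals, so p-values measure the spread between these libraries, which may be technical. Pairs of libraries with the same label differed at an unadjusted p under 0.05 in 22.4% to 31.7% of genes, so none was counted as a duplicate. Floors cover counting error alone.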

Additional observations from a re-analysis of the deposited data

How the results depend on the processing

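Across 14 alternatives, of which those with DESeq2 and limma changed the test together with the scaling or unit, the 7 called genes of the 8 kept their direction and their call. *Nov* ranged from 3.7 to 4.34 on the log2 scale, *Ctgf* from -0.55 to -0.40, *Cyr61* from -0.48 to -0.35, *Wisp1* from -0.46 to -0.35, *Wisp2* from -0.54 to -0.45, *Ankrd1* from -0.39 to -0.30 and *Ajuba* from -0.32 to -0.23, with the largest edgeR, DESeq2 or limma adjusted p at 0.0209 for *Ajuba*. *Amotl2* ranged from -0.37 to -0.17 and its adjusted p from 0.00891 to 0.264. With a fold change above 2 asked for in addition, 882 genes were called, 844 higher and 38 lower, and of the 8 genes 1 was called, *Nov*, and 0 lower.

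When each library was left out, 3152 to 4122 genes were called, 2013 to 2508 higher and 1131 to 1614 lower, against 1760 lower in all libraries, and fewer libraries enter each such fit. The log2 fold change of *Wwtr1* ran from -0.0178 to 0.146 in these fits. The log2 ratio of *Wisp2* to *Wisp1* differed by -0.14 to -0.02, that of *Cyr61* to *Ctgf* by 0.05 to 0.11 and that of *Nov* to *Ctgf* by 4.39 to 4.88.

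The replicate numbers did not establish a pairing, since deviations of same-numbered libraries correlated at 0.017, 0.017 and 0.031, although each library correlated best with its own number. With a replicate block 3907 genes were called, 2316 higher and 1591 lower, and *Amotl2* was called at -0.26 (edgeR adjusted p = 0.0148).

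Of 79 other named genes, 59 had the same call and direction under every alternative, 16 lost a call, 3 gained one (*Kdm5b*, *Limd1* and *Tead1*) and 1, *Wwtr1*, changed sign without a call. The 3 libraries per label limit what can be told apart: in the simulated data changes of 0.5 on the log2 scale were recovered in 36 of 80 genes. The simulation changed 200 genes, while 30.2% of the genes tested were called in the real data. Its recovery therefore need not hold for the 8 genes. The median log2 fold change over the 14084 genes was -0.015 as reported, -0.057 with upper quartile scaling and 0.019 with library size alone.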
